A study of Mus musculus with 6 samples.

Results

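Cholesterol synthesis and sterol handling were followed as 32 genes of the 17606 in the table: 18 enzymes that build cholesterol, 7 genes that sense sterols or control their transcription, and 7 genes that move, esterify or oxidise cholesterol. The genes were listed by name for their textbook place in sterol metabolism, so that no threshold on a measured value decided membership, but the list was drawn up with earlier results of these data known. All 32 were in the table and all 32 passed the low-count filter, so no member was dropped from the counts that follow.

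The RNA came from corneal keratocytes, the stromal cells that lie between the collagen layers of the cornea, sorted by flow cytometry from mice. Prrx1-creERT;Ptch1 mice (n = 3 libraries, called Ptch1-ablated here) were compared with ctrl mice (n = 3 libraries), whose genotype the labels do not state. The study writes the floxed allele as Ptch1 f/f. Mice of both groups were 10 weeks old, received 3 doses of tamoxifen, which switches on the CreERT recombinase, and were sampled 1 month later, so tamoxifen was shared by both groups. The Prrx1 promoter drives recombination in keratocytes but also in corneal endothelium and other mesenchymal cells of the eye. The study describes 3 biological replicates a group and does not say whether corneas of several mice were pooled, so p-values measure the spread between these libraries. These are bulk samples, in which fewer cells of a type and less RNA per cell cannot be told apart.

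Cells make cholesterol from acetyl-CoA by the mevalonate pathway, which leads through isoprenoids to squalene, then to lanosterol, the earliest sterol, and by trimming of lanosterol to cholesterol. The pathway is under feedback control: when membranes are poor in sterol, SCAP carries the SREBP transcription factors to the Golgi, where they are cut and released to switch on the synthesis genes, and when sterol is plentiful the INSIG proteins hold them back. Oxysterols activate the nuclear receptors LXR, which turn on genes for cholesterol efflux and for fatty acid synthesis. Sterols also touch Hedgehog signalling, because the signal transducer Smo binds sterols and its inhibitor Ptch1 resembles proteins that transport them.

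The 6 libraries held between 20258439 and 24788063 expected counts, and 14331 to 15645 genes had at least 1 count. A level of 3 counts corresponded to 0.121 to 0.158 CPM (counts per 1000000, scaled by TMM, a normalization that sets the bulk of genes equal between libraries), and the members' own counts lay between 51 and 40228. Differences are given below in CPM and as log2 fold changes, Ptch1-ablated over control, with their standard error (SE). Levels of different genes are compared in TPM (transcripts per 1000000), which allows for gene length. Genes are said to have risen or fallen where edgeR's quasi-likelihood test gave a Benjamini-Hochberg adjusted p of at most 0.05 over the 13888 genes tested, and 1178 genes, 8.48%, passed. Of these, 650 (4.68%) rose and 528 (3.8%) fell, so that 55.2% of the calls were higher, against 72.6% where libraries were scaled by their totals alone. The median log2 fold change of all tested genes was 0.0046, with 7001 genes above 0 and 6887 below. Control replicate 1 and Ptch1-ablated replicate 2 stood apart from the other libraries on the second principal component, which held 22.2% of the variance.

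The Hedgehog readouts followed the labels. Gli1, a transcription factor and target of the pathway, had 1, 20 and 36 counts in the control libraries against 3022, 3042 and 3098 in the Ptch1-ablated libraries, and Hhip, a target that binds Hedgehog ligands, had 12 to 31 counts against 23979 to 26893. Ptch1 itself had 172, 104 and 369 counts against 4348, 5194 and 6230, a count over the whole gene that does not resolve the deleted exons and so does not check the deletion. Keratocyte markers summed to 61240 to 64890 TPM in control and to 42480 to 47010 TPM in Ptch1-ablated libraries, and 5 of these 6 genes fell. Vascular endothelial markers summed to 237 to 333 TPM in control and 377 to 409 TPM in Ptch1-ablated libraries (4 of 5 genes rose). In TMM-scaled CPM these sums overlapped, at 553 to 771 in control and 647 to 713 in Ptch1-ablated libraries. Kdr, the most abundant of the 5, had a log2 fold change of -0.40 (edgeR adjusted p = 0.112). Mural cell markers summed to 133 to 152 TPM and 307 to 326 TPM (2 of 4 rose). Schwann cell markers summed to 130 to 145 TPM and 184 to 205 TPM (1 of 5 rose, none fell). Corneal epithelial markers summed to 50.8 to 89.3 TPM in control and 3.5 to 8.99 TPM in Ptch1-ablated libraries (3 of 6 tested genes fell, 1 rose). Corneal endothelial markers summed to 580 to 667 TPM and 439 to 628 TPM (1 of 3 fell), which overlapped. In TMM-scaled CPM the corneal endothelial sums did not overlap, at 1054 to 1214 and 718 to 1023. The part of these cell types in the results below was not tested, except where a value is given beside a result.

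Of the 32 members, 5 passed the test (15.6%, against 8.48% of all tested genes): Cyp51 and Abcg1 rose, and Insig1, Apoe and Cyp27a1 fell. Abcg1 and Cyp27a1 also differed by at least 2-fold, a size that 763 tested genes (5.49%) reached with an adjusted p of at most 0.05. The 3 control and 3 Ptch1-ablated libraries did not overlap in CPM for 10 members (31.2%, against 27.4% of all tested genes), 4 of them higher after Ptch1 ablation (14.1% of all tested genes were) and 6 lower (13.3%). Those that passed the test were spread over the 3 roles: 1 of 18 enzymes, 1 of 7 regulators and 3 of 7 handling genes.

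**Figure D1:**
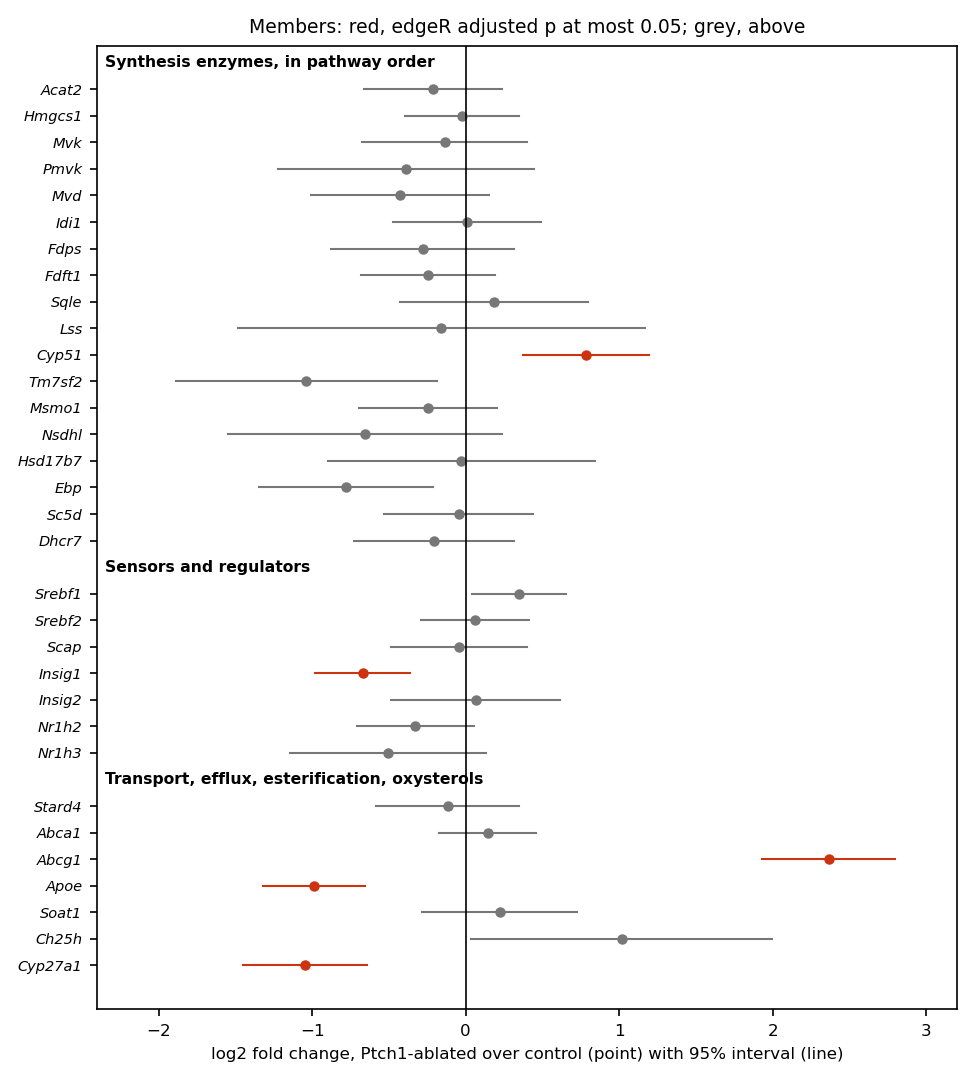
Log2 fold change of each of the 32 members, Ptch1-ablated over control (x axis), with its 95% interval from the edgeR fit (line), grouped by role and with the enzymes in pathway order (y axis). The 5 members with an adjusted p of at most 0.05 are red, and Abcg1, at 2.36, lies farthest from 0.

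Promoter sequences of 3 members are shown because sterol synthesis genes are known to share control by SREBP: Hmgcs1, at the start of the pathway, Cyp51, the enzyme that rose, and Insig1, the feedback gene that fell. SREBPs bind the sterol regulatory element, and at many sterol genes they act together with NF-Y, a factor that binds the box CCAAT. Each line gives the 250 bases before the RefSeq transcription start in mouse build GRCm38.p6, 5′ to 3′ on the gene's own strand. Hmgcs1 is at chr13:119690101-119690350 on the plus strand, Cyp51 at chr5:4104698-4104947 on the minus strand and Insig1 at chr5:28071162-28071411 on the plus strand. Capitals mark the NF-Y box (CCAAT, or ATTGG where it lies on the other strand) and the sterol regulatory element core TCACNCCAC.
Hmgcs1: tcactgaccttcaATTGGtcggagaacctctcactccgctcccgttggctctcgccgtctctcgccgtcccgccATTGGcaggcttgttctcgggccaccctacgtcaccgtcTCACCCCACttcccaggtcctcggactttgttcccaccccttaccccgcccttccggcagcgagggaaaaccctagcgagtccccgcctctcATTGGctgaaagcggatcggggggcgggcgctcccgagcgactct
Cyp51: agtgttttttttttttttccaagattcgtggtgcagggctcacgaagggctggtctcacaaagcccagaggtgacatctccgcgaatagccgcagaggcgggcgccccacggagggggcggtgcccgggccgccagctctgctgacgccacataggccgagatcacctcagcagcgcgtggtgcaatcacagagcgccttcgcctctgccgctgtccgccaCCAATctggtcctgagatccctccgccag
Insig1: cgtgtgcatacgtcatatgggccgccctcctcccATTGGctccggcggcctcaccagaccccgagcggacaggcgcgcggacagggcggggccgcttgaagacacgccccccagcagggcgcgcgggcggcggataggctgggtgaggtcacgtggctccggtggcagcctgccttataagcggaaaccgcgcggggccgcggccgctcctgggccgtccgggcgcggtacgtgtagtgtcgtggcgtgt

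In Hmgcs1 the sterol regulatory element core begins 137 bases before the start, with NF-Y boxes at 237, 176 and 45 bases before it. These distances rest on the RefSeq start alone. No Hmgcs1 transcript of GENCODE, another annotation, held the bases just after that start near its own 5′ end, against 1 transcript each for Cyp51 and Insig1. Cyp51 holds an NF-Y box 29 bases before the start and Insig1 one 216 bases before it, and neither holds the core in these letters. RefSeq promoter windows, which run from 250 bases before to 50 bases after the start, were matched for 27 of the 32 members by symbol. Fdps, Fdft1, Sqle, Stard4 and Abcg1 were not matched. An NF-Y box on either strand was present in a window of 14 of the 15 matched enzymes (93.3%). It was in a window of 4 of 7 regulators and 2 of 5 handling genes. Of the 10992 tested genes with a window 42.7% held one, and of all genes with a window 41.1%. The core TCACNCCAC was found in Hmgcs1 alone among the 27 members, against 1.36% of tested genes. The E-box CACGTG, a palindrome that SREBPs can also bind, was in a window of 6 of the 27 members (22.2%) and of 11.4% of tested genes, and one lay 101 bases before the start of Insig1. The LXR element was searched only as an exact direct repeat of AGGTCA with 4 unspecified bases between the copies. That repeat was in no member and in none of the tested genes' windows, so the search could not tell members from other genes. Variants of the element were not searched. The boxes overlap no other searched motif in the 3 printed runs, and a match describes letters, not a bound site.

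Most synthesis enzymes were expressed above the median of tested genes in control keratocytes, with Lss and Hsd17b7 below it. Their control mean ran from 4.88 TPM for Lss, the enzyme that closes squalene epoxide into lanosterol, to 91.0 TPM for Fdps, which makes farnesyl diphosphate, with a median of 40.1 TPM beside 13.84 TPM for all tested genes. Lss lay at percentile 27.4 of tested genes and Fdps at percentile 88.0. Summed over the 18 enzymes, the level was 672.8, 785.4 and 762.6 TPM in control and 790.4, 688.4 and 798.2 TPM in Ptch1-ablated libraries, or 740 ± 59.6 and 759 ± 61.3 TPM (SD, n = 3 each). The groups overlapped in this sum, and their means differed by less than the spread within either group. The TPM values of all tested genes were shifted upwards by a median of 0.188 on the log2(TPM + 1) scale in Ptch1-ablated libraries, relative to the TMM-scaled fit. In TMM-scaled CPM the enzymes summed to 690, 814 and 807 in control and to 766, 650 and 784 in Ptch1-ablated libraries.

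**Figure D2:**
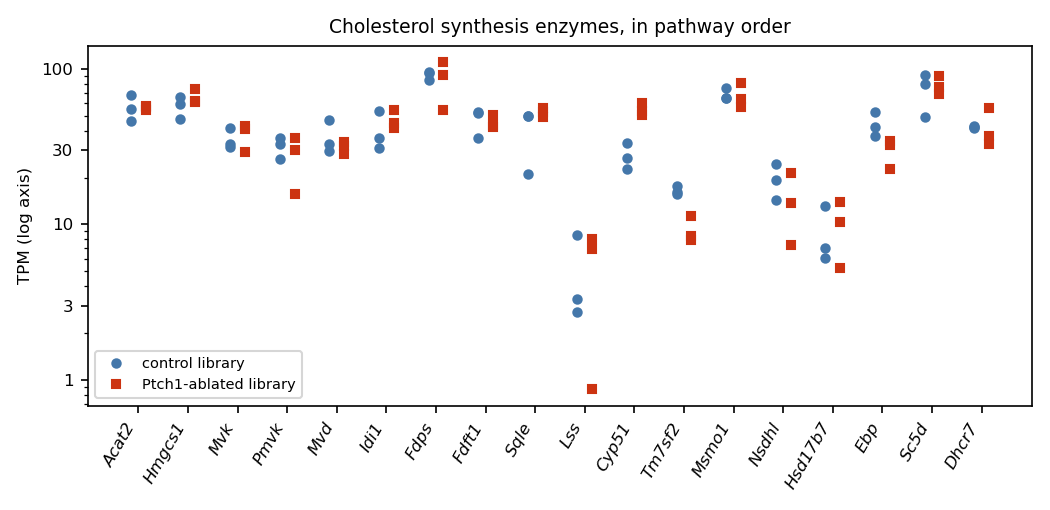
Level of the 18 cholesterol synthesis enzymes in TPM (y axis, log scale) in each control library (circles) and each Ptch1-ablated library (squares), with the enzymes in pathway order (x axis). Levels span from Lss, at a control mean of 4.88 TPM, to Fdps, at 91.0 TPM. Cyp51 and Tm7sf2 are neighbours in the pathway. Points of the groups do not overlap for either, but Cyp51 passed the test and Tm7sf2, which lies lower after ablation, did not (edgeR adjusted p = 0.145).

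Of the 18 enzymes 1 passed the test (5.56%, below the 8.48% of all tested genes), and none fell. An unadjusted p under 0.05 was reached by 3 enzymes, Cyp51, Tm7sf2 and Ebp, beside 2854 of the 13888 tested genes. DESeq2 likewise called 1 enzyme higher and none lower, beside 958 higher and 778 lower among all tested genes. The median log2 fold change of the 18 was -0.207, beside 0.0046 for all tested genes, and 15 of the 18 values were below 0. Scaled by library totals alone, 11 of the 18 were below 0 and 15 lay below the all-gene median. Without Ptch1-ablated replicate 2, the lowest library of its group for 13 of the 18 enzymes, the median was -0.0626 and 13 values were below 0, while without Ptch1-ablated replicate 3 it was -0.362 and 15 were. The groups did not overlap for 4 enzymes (22.2%, against 27.4% of tested genes). The 17 enzymes that did not pass had log2 fold changes from -1.04 to 0.18, and for 11 of the 18 the 95% interval lay within 2-fold in either direction.

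Cyp51 (Entrez 13121), the lanosterol demethylase that starts the trimming of lanosterol, rose. Its level was 47.6, 55.6 and 67.2 CPM in the control libraries and 109.1, 84.8 and 100.2 CPM in the Ptch1-ablated libraries, so every ablated library lay above every control. The means were 56.8 ± 9.89 and 98.0 ± 12.3 CPM (SD, n = 3 each). Cyp51 rose by 0.79 ± 0.19 (SE) on the log2 scale, or 1.73-fold, with an edgeR adjusted p of 0.0217 and a 95% interval of 0.377 to 1.197. Per length, the level was 27.6 ± 5.39 TPM in control and 54.8 ± 5.16 TPM after ablation. The call was lost when control replicate 1 (0.67), control replicate 2 (0.77), Ptch1-ablated replicate 1 (0.71) or Ptch1-ablated replicate 3 (0.77) was left out, with the log2 fold change in parentheses, and adjusted p ran from 0.000958 to 0.0959 over the alternatives. Cyp51 overlaps Akap9 on the other strand, whose log2 fold change was 0.22 ± 0.19 (adjusted p = 0.591), and whether the counting used strand is not given in the sources used here.

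The enzymes on either side of the demethylation step did not pass the test. Tm7sf2, a sterol reductase that acts right after Cyp51, had 10.2, 9.89 and 10.7 CPM in control and 6.22, 4.04 and 4.75 CPM in Ptch1-ablated libraries. The groups did not overlap, but the log2 fold change of -1.04 ± 0.39 had an adjusted p of 0.145, with a 95% interval of -1.89 to -0.185. Tm7sf2 overlaps Vps51 on the same strand (0.17 ± 0.17, adjusted p = 0.651). Lbr, which carries out the same reduction in the nuclear membrane and is not a member, had a log2 fold change of 0.44 ± 0.24 (adjusted p = 0.343). The test thus did not separate the groups for either reductase.

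Ebp, the isomerase that shifts a double bond of the sterol ring, showed the lowest adjusted p of the enzymes that did not pass. It had 40.3, 32.4 and 27.4 CPM in control and 15.01, 20.05 and 23.31 CPM in Ptch1-ablated libraries, without overlap. Its log2 fold change was -0.78 ± 0.26 (adjusted p = 0.0974), with an interval of -1.35 to -0.209. Msmo1, Nsdhl and Hsd17b7, which together remove the methyl groups of the ring, had log2 fold changes of -0.24, -0.65 ± 0.41 and -0.03, and all of them overlapped between groups. For the late enzymes Sc5d, a desaturase, and Dhcr7, the reductase that yields cholesterol, the values were -0.04 and -0.20. Dhcr7 lay between 46.4 and 46.9 CPM in the 3 control libraries and at 55.1, 30.2 and 36.2 CPM in the Ptch1-ablated libraries, on both sides of the controls.

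The mevalonate block showed no call. Hmgcs1, the synthase that makes HMG-CoA, had 109.8, 79.6 and 95.1 CPM in control and 89.6, 99.6 and 90.9 CPM in Ptch1-ablated libraries. All 3 ablated values fell within the range of the controls, and the log2 fold change was -0.02 ± 0.17 with an interval of -0.39 to 0.35, which bounds the difference on either side. Acat2, which condenses acetyl-CoA, and the kinases Mvk and Pmvk, which phosphorylate mevalonate, had -0.21, -0.14 and -0.39. Mvd, the decarboxylase after them, had 22.9, 36.5 and 24.4 CPM in control against 22.8, 17.6 and 22.0 CPM, groups that touched without overlapping, with a log2 fold change of -0.43 ± 0.26 (adjusted p = 0.414). Idi1, which isomerises the isoprenoid unit, lay at 0.0094 ± 0.22 and Fdps at -0.28.

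At the branch into sterols, Fdft1, the squalene synthase, had a log2 fold change of -0.25 ± 0.20 (adjusted p = 0.561). It overlaps Ctsb, a lysosomal protease gene on the other strand that fell by 0.52 ± 0.10 on the log2 scale (adjusted p = 0.00748), and the part of Ctsb reads in the Fdft1 value was not tested. Sqle, the squalene epoxidase and a known control point of the pathway, had 27.1, 63.0 and 61.2 CPM in control and 62.0, 54.1 and 55.7 CPM in Ptch1-ablated libraries. Control replicate 1 alone was low, and the log2 fold change was 0.18 ± 0.28 (adjusted p = 0.791). Lss had few and uneven counts, 225, 358 and 185 in control against 295, 51 and 462, and its interval of -1.48 to 1.17 allows a difference of over 2-fold in either direction.

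Among the 7 sensors and regulators, levels ran from 28.4 TPM for Nr1h3, which encodes LXR-alpha, to 170.5 TPM for Srebf2, which encodes the SREBP that mainly drives cholesterol synthesis. The gene that passed was Insig1 (Entrez 231070), the membrane protein that retains SCAP and SREBP and is itself an SREBP target. Its level was 153.7, 171.4 and 163.3 CPM in the control libraries and 99.5, 107.5 and 100.1 CPM in the Ptch1-ablated libraries. Every ablated library was below every control, with means of 162.8 ± 8.88 and 102.4 ± 4.49 CPM (SD, n = 3 each). Insig1 fell by 0.67 ± 0.14 (SE) on the log2 scale, or 1.59-fold, with an edgeR adjusted p of 0.0107 and a 95% interval of -0.98 to -0.36. Per length, it had 134.4 ± 8.10 TPM in control and 98.1 ± 9.27 TPM after ablation. The call was lost without control replicate 2 (-0.63) and when log2 TPM values were fitted with limma (-0.45 and -0.46 with the larger and smaller pseudocount). Less the shift of the all-gene median from the TMM-scaled fit, those limma values were -0.64 and -0.67. Adjusted p ran from 8.06e-05 to 0.0698 over the alternatives.

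Insig2, the paralog of Insig1, had 37.7, 61.1 and 55.1 CPM in control and 45.6, 43.7 and 71.9 CPM in Ptch1-ablated libraries, which overlapped widely (0.07 ± 0.25 on the log2 scale). Srebf2 had 387, 416 and 346 CPM against 492, 382 and 324 CPM (0.06 ± 0.16, adjusted p = 0.893), and Scap, the escort of SREBP, had a log2 fold change of -0.04 ± 0.20. The intervals of all of these included 0. Srebf1, whose product drives fatty acid synthesis more than sterol synthesis and which LXR activates, had 253.9, 266.6 and 236.9 CPM in control and 371.1, 303.2 and 288.3 CPM in Ptch1-ablated libraries. The groups did not overlap, yet the log2 fold change of 0.35 ± 0.14 had an adjusted p of 0.177. It passed where libraries were scaled by their totals (0.51) and in the limma fits (0.55 in each), in which the median of all genes also lay above 0. Less the shift of that median from the TMM-scaled fit, Srebf1 was at 0.34, 0.36 and 0.33. Srebf1 overlaps Rai1 on the other strand (0.79 ± 0.22, adjusted p = 0.0503). Of the LXR genes, Nr1h3 had -0.51 ± 0.29 (adjusted p = 0.373) and Nr1h2, which encodes LXR-beta, -0.33 ± 0.17 (adjusted p = 0.327).

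The handling genes held the largest difference of the 32 members, that of Abcg1: 3 of 7 passed (42.9%, against 8.48% of all tested genes) and 4 of 7 did not overlap between groups (57.1%, against 27.4%). Abcg1 (Entrez 11307), a transporter that moves cholesterol out of cells towards high-density lipoprotein and a classical LXR target, rose. Its level was 24.2, 20.1 and 22.8 CPM in the control libraries and 119.3, 133.3 and 93.4 CPM in the Ptch1-ablated libraries. The lowest ablated library was thus well above the highest control, with means of 22.4 ± 2.07 and 115.3 ± 20.3 CPM (SD, n = 3 each). The log2 fold change was 2.36 ± 0.20 (SE), or 5.15-fold, with an edgeR adjusted p of 1.14e-05 and a 95% interval of 1.93 to 2.80. Per length, Abcg1 went from 7.99 ± 0.767 TPM to 47.9 ± 10.6 TPM. It passed in all 16 alternatives, with log2 fold changes from 2.25 to 2.55.

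Abca1 (Entrez 11303), the partner transporter that loads cholesterol onto lipid-poor apolipoproteins and is likewise an LXR target, did not pass. It had 202.9, 174.8 and 222.0 CPM in control and 212.8, 242.6 and 206.6 CPM in Ptch1-ablated libraries, with overlap. Its log2 fold change was 0.14 ± 0.15 (adjusted p = 0.657), and its interval of -0.17 to 0.46 lay wholly below that of Abcg1. In control keratocytes Abca1 had the higher level per length, 39.8 ± 5.41 TPM against 7.99 ± 0.767 TPM for Abcg1, while after ablation the levels were 51.0 ± 7.05 TPM and 47.9 ± 10.6 TPM, closer than their spread.

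**Figure D3:**
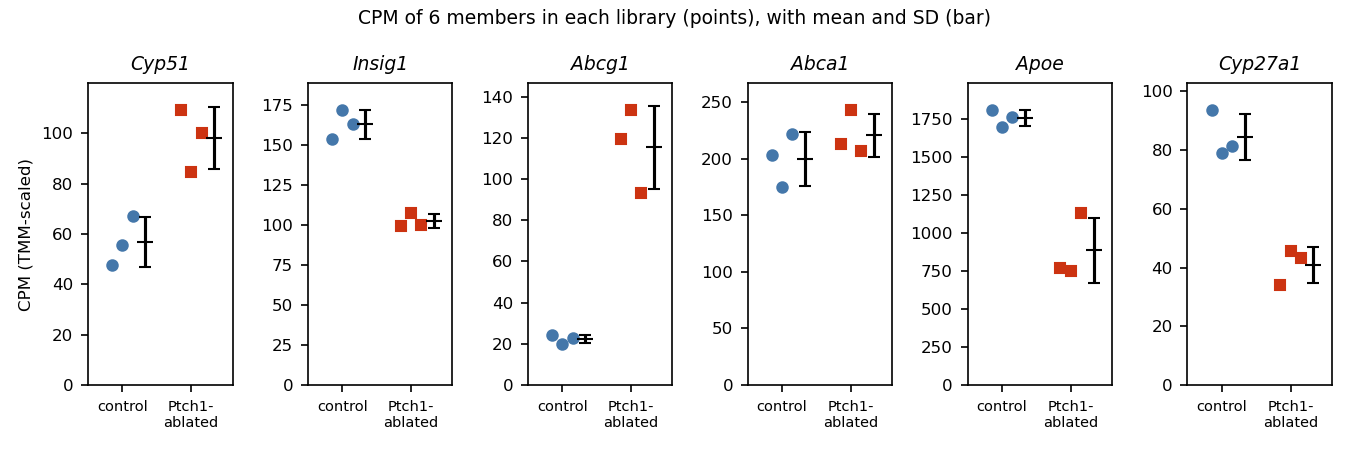
TMM-scaled CPM (y axes, each from 0 and on its own scale) of 6 members in the 3 control libraries (circles) and the 3 Ptch1-ablated libraries (squares), with the mean and SD of each group (bars). Cyp51 and Abcg1 are higher and Insig1, Apoe and Cyp27a1 lower in every Ptch1-ablated library, while the groups of Abca1 overlap.

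Apoe (Entrez 11816), the apolipoprotein that accepts effluxed cholesterol and carries it between cells, fell. It was among the most abundant transcripts, at 3431 ± 132 TPM in control and percentile 99.8 of tested genes. Its level was 1807, 1702 and 1761 CPM in the control libraries and 773.5, 752.4 and 1133 CPM in the Ptch1-ablated libraries. No ablated library reached the controls, although Ptch1-ablated replicate 3 lay apart from the other two, with means of 1757 ± 53.0 and 886 ± 214 CPM (SD, n = 3 each). Apoe fell by 0.99 ± 0.15 (SE) on the log2 scale, or 1.98-fold, with an edgeR adjusted p of 0.00141 and a 95% interval of -1.32 to -0.65. Per length its mean after ablation was 1985 ± 401 TPM, and it passed in all 16 alternatives (-1.21 to -0.81).

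Cyp27a1 (Entrez 104086), the mitochondrial hydroxylase that turns cholesterol into an oxysterol, fell with it. The control libraries had 93.5, 78.9 and 81.3 CPM and the Ptch1-ablated libraries 34.1, 45.5 and 43.3 CPM. The groups were separated by a wide gap, with means of 84.6 ± 7.81 and 40.9 ± 6.06 CPM (SD, n = 3 each). On the log2 scale Cyp27a1 fell by 1.05 ± 0.19 (SE), or 2.06-fold, with an edgeR adjusted p of 0.00378 and a 95% interval of -1.45 to -0.64. All 16 alternatives kept the call, from -1.12 to -0.83, so that the size fell below 2-fold in some.

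Ch25h, another hydroxylase that makes an oxysterol and that inflammatory signals induce, had few counts: 88, 62 and 204 in control against 242, 274 and 272 in Ptch1-ablated libraries. That is 4.04, 3.26 and 8.93 CPM against 10.3, 11.6 and 11.0 CPM, without overlap but with control replicate 3 close to the ablated libraries. The log2 fold change of 1.02 ± 0.45 had an adjusted p of 0.222, and it passed in the limma fits (1.27 and 1.36). Less the shift of the all-gene median from the TMM-scaled fit, those limma values were 1.08 and 1.15. Stard4, which shuttles cholesterol between membranes, lay at -0.12 ± 0.21, and Soat1, which esterifies cholesterol for storage, at 0.22 ± 0.23 (adjusted p = 0.668), both with overlapping groups.

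Macrophages, which a corneal stromal preparation can hold, also express Apoe, Abcg1 and Cyp27a1, so leukocyte and macrophage markers were set beside these 3 results. The 9 markers summed to 2151 to 2308 TPM in control and to 2000 to 2607 TPM in Ptch1-ablated libraries, with overlap, and none was at 0. Of the 9, Itgam rose and none fell, with a median log2 fold change of -0.132. The keratocyte markers fell alongside Apoe and Cyp27a1, as given above, and their part in those falls was not tested.

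To place the members, 3 other lists of lipid genes were tested in the same fit. Of 12 genes of fatty acid synthesis and desaturation, 2 rose (16.7% passed, against 8.48% of all tested genes) and none fell. Their median log2 fold change was -0.0156. An unadjusted p under 0.05 was reached by 5 of the 12, beside 2854 of the 13888 tested genes. DESeq2 called 3 of them higher and 1 lower, beside 958 higher and 778 lower among all tested genes. Scd1, a desaturase that makes monounsaturated fatty acids and a target of SREBP and LXR, had 34.0, 41.7 and 34.2 CPM in control and 71.1, 82.5 and 85.5 CPM in Ptch1-ablated libraries. All ablated values lay above the controls (1.12 ± 0.18 on the log2 scale, edgeR adjusted p = 0.0022). Its paralog Scd2 had 452.7, 488.7 and 478.7 CPM against 647.1, 689.3 and 623.0 CPM, a smaller difference of 0.46 ± 0.11 (adjusted p = 0.0250) that was lost in 7 of the 16 alternatives. Reads shared between such paralogs were apportioned by the authors' counting. Fads1, of the same list, lay near the threshold and lower after ablation. Its log2 fold change was -0.45 ± 0.13 (edgeR adjusted p = 0.0527), without overlap between the groups. Fasn, the fatty acid synthase, and Acss2, which makes acetyl-CoA from acetate, had log2 fold changes of 0.45 and -0.79 with adjusted p of 0.129 and 0.137.

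Of 31 further genes of sterol trafficking, lipoproteins and sterol control, 29 had enough counts to be tested, and 2 rose and 3 fell (17.2% passed, against 8.48% of all tested genes), with a median log2 fold change of -0.0495. Pltp, a phospholipid transfer protein of lipoproteins and an LXR target, rose from 320.7, 299.3 and 302.2 CPM to 834.5, 773.5 and 797.3 CPM (1.38 ± 0.11, edgeR adjusted p = 1.08e-05). Scarb1, the receptor for high-density lipoprotein, rose from 53.9, 42.7 and 53.7 CPM to 109.4, 117.4 and 107.7 CPM (1.15 ± 0.17, adjusted p = 0.000976). Both showed a clear gap between the groups.

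The genes that fell act on cholesterol inside the cell. Npc2, which hands cholesterol on in the lysosome, had 279.8, 262.9 and 235.9 CPM in control and 145.4, 120.1 and 179.4 CPM in Ptch1-ablated libraries (-0.81 ± 0.17, edgeR adjusted p = 0.00943). Stard5, a cytosolic carrier, had 125.9, 140.2 and 143.7 CPM against 87.5, 63.9 and 83.9 CPM (-0.80 ± 0.17, adjusted p = 0.0108). Tmem97, a sterol-responsive membrane protein, had 48.9, 54.5 and 38.1 CPM against 26.5, 24.2 and 29.5 CPM (-0.82 ± 0.22, adjusted p = 0.0388). None of these groups overlapped, but Tmem97 lost its call in 9 of the 16 alternatives, Npc2 when the pair of libraries that stood apart was left out (-0.62) and Stard5 without control replicate 2 (-0.78). Mylip and Lpcat3, both LXR targets, did not pass: Mylip, which marks lipoprotein receptors for degradation, had a log2 fold change of 0.54 ± 0.16 (adjusted p = 0.0586), and Lpcat3, which remodels phospholipids, had 0.05 ± 0.20 (adjusted p = 0.934). The transporter Abca7 had a log2 fold change of 1.26 ± 0.37 (adjusted p = 0.0555). The genes called LXR targets in this report are not a complete list, and LXR targets were not tested as a set.

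The isoprenoid branch, which draws on the same mevalonate pathway to make the lipid anchors of proteins and the side chains of ubiquinone, gave no call in its 10 genes. None had an unadjusted p under 0.05, beside 2854 of the 13888 tested genes. DESeq2 called none, beside 1736 of all tested genes, and the median log2 fold change of the branch was -0.0513. None of the 7 members from Acat2 to Fdps, which feed this branch, passed the test either.

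**Figure D4:**
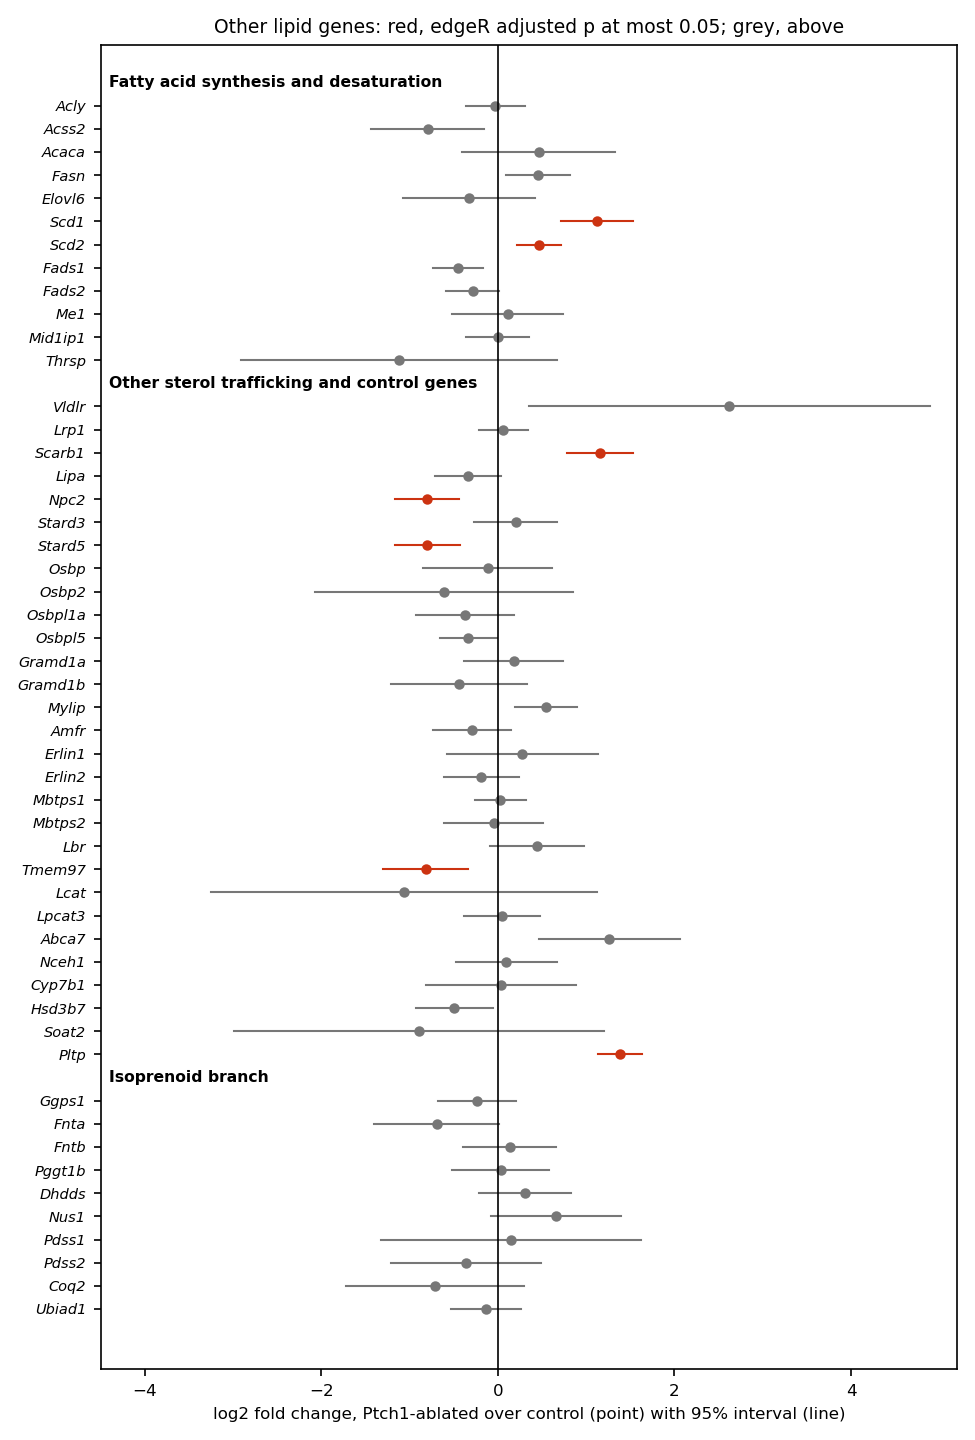
Log2 fold change, Ptch1-ablated over control (x axis), with its 95% interval (line), for the tested genes of fatty acid synthesis and desaturation, of other sterol trafficking and control, and of the isoprenoid branch (y axis). Genes with an edgeR adjusted p of at most 0.05 are red: Scd1, Scd2, Scarb1 and Pltp lie above 0 and Npc2, Stard5 and Tmem97 below.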

How the data were processed

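RNA-seq of 6 libraries of sorted corneal keratocytes was used, 3 control and 3 Ptch1-ablated, grouped by their titles. The authors deposited expected counts, TPM and FPKM per gene. The submitters' processing notes name Bowtie2 2.2.5, RSEM 1.2.12 and build mm9. The annotation and the use of strand are not given in the sources used here. The labels name an Illumina TruSeq kit whereas the study's methods describe ribosomal RNA depletion and another sequencer, so the selection of RNA is unsettled. FPKM values and the authors' group means were not used.

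Expected counts, of which 18.59% were not whole within 0.005, were rounded. Genes low in all libraries were removed with filterByExpr, and 13888 of 17606 genes were tested with edgeR 4.0.16 (TMM scaling, quasi-likelihood, two-sided, group as the only term) in R 4.3.3, with Benjamini-Hochberg adjustment over all tested genes. Thresholds were an adjusted p of 0.05 and, apart, 2-fold. SE is the log2 fold change over the square root of its F statistic, and intervals cover 95%. With 3 against 3 libraries an exact permutation test cannot go below p = 0.1, so none was used. The fit was tested on simulated data. All members were named, with other genes where they passed, stood near the threshold, overlapped a member or bore on a result. The members and lists were chosen with earlier results of these data known. Promoter sequences were from RefSeq (GRCm38.p6), searched on both strands with Python 3.11.15. Alternatives were DESeq2 1.42.0, other scalings and filters, each library left out, the replicate number as a block, and limma 3.58.1 on log2(TPM + 1) and log2(TPM + 0.1). Leaving out both libraries that stood apart was added after seeing the data.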

Additional observations from a re-analysis of the deposited data

How the results depend on the processing

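Of 40 genes followed through 16 alternatives, 18 kept their direction and their side of the threshold in all of them, 6 lost a call in some (Cyp51, Insig1, Scd2, Npc2, Stard5 and Tmem97), 2 gained one (Srebf1 and Ch25h) and 14 changed sign, none of which had passed. There were 21 sign changes under library totals, upper quartile scaling and limma. With the shift of the all-gene median from the TMM-scaled fit taken off, 20 of them had the sign reported. Without those 20, 12 genes changed sign. With library totals the median of all genes moved up by 0.168, and in the limma fits by 0.188 and 0.216, and 72.6% of calls were higher after ablation under library totals against 55.2% under TMM. DESeq2 called 1736 genes, against 1178 with edgeR. The interval of Lss, the widest among the enzymes, allows over 2-fold either way.

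Members called higher numbered 4 in both limma fits, against 2, and 1 to 2 with a library left out. Members past 2-fold numbered 1 with library totals, against 2, and 1 to 3 with a library left out. Genes called in all numbered 778 to 1015 with a library left out, the lowest without control replicate 2. The median log2 fold change of the regulators was 0.117 with library totals, 0.138 and 0.140 in the limma fits and -0.271 to 0.0968 with a library left out. Less the shift of the all-gene median from the TMM-scaled fit, the library totals and limma values were -0.0510, -0.0501 and -0.0765, against -0.0433 in that fit. The median of the enzymes was -0.362 to -0.0626 with a library left out. That of the handling genes was 0.313 with library totals and 0.350 and 0.358 in the limma fits. Less the same shift, these were 0.145, 0.163 and 0.142, against 0.143 in the TMM-scaled fit. The median of the handling genes was 0.0791 without both libraries that stood apart, and 0.0551 to 0.169 with a library left out.

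Signs changed as follows, in log2 fold change. Library totals gave 0.144 for Hmgcs1, 0.141 for Hsd17b7, 0.0321 for Mvk, 0.129 for Sc5d, 0.117 for Scap and 0.0536 for Stard4. The limma fits gave 0.0168 and 0.0173 for Acat2, 0.200 and 0.203 for Hmgcs1, 0.136 and 0.146 for Hsd17b7, 0.0787 and 0.0804 for Mvk, 0.135 and 0.137 for Sc5d, 0.138 and 0.140 for Scap, and 0.0834 and 0.0885 for Stard4. Upper quartile scaling gave -0.0345 for Idi1. Without both libraries that stood apart the values were 0.0171 for Fdps, 0.0458 for Hmgcs1, 0.168 for Hsd17b7, -0.210 for Idi1, 0.214 for Lss, 0.0294 for Pmvk, 0.176 for Scap and -0.0777 for Sqle. With a library left out, the range was -0.134 to 0.0949 for Hmgcs1, -0.378 to 0.359 for Hsd17b7, -0.136 to 0.249 for Idi1, -0.205 to 0.211 for Insig2, -0.751 to 0.337 for Lss, -0.214 to 0.00288 for Mvk, -0.272 to 0.138 for Sc5d, -0.271 to 0.131 for Scap, -0.117 to 0.375 for Sqle and -0.116 to 0.187 for Srebf2.

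Same-numbered libraries did not deviate together (r = -0.0461, -0.0489 and 0.0388 for numbers 1, 2 and 3), so the numbers were not taken as pairs. With the replicate number as a block, 942 genes passed, Scd2 (0.46) and Tmem97 (-0.81) lost their calls, and Sc5d moved to 2.5078e-05. No other call among the genes followed changed under the block. The cause of these changes was not tested.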
